A study of Danio rerio with 20 samples.

Results

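Cyclins, the kinases they switch on, the E2F factors that set the transcription of division genes and the lamins of the nuclear envelope are described here in the zebrafish brain. The members are the genes whose symbol matches a pattern of family names (cyclins, CDKs and their inhibitors, CDC6, CDC7, CDC14, CDC20 and CDC25, APC/C subunits, E2F, DP, pocket protein and MYB factors, Aurora and Polo kinases, securin, separase, geminin and lamins) in the deposited gene table, and they are 35 of the 2885 distinct genes there, or 1.21%. Poly(A) RNA was sequenced from whole brains of male fish of the AB background, and labels exist for 20 libraries in 7 groups, which are WT over 30 months (3 libraries), WT at 22 months (3), WT at 9 months (3), WT at 2 months (2), and telomerase-deficient tert-/- fish at 22, 9 and 2 months (3 each). WT and tert-/- fish were siblings from crosses of heterozygous parents, and the tert mutation is a point mutation carried in every cell. The table comes from the authors' comparison of WT over 30 months with WT at 2 months and holds only genes that they called in it. Its fold changes and p-values are the authors' own comparison and were not used, so that no difference between ages or genotypes is given. The only measurement of expression used is the authors' mean normalized count, 1 pooled value per gene. By the methods WT libraries were fitted separately, and which of them the mean runs over is not stated. It has no value per library, no spread and no n, so differences between levels could not be tested, and the depth of the libraries is not given in the table. Every listed gene was called between WT over 30 months and WT at 2 months, so a level mixes ages. Orders and ratios of levels between genes may therefore depend on which libraries were averaged, which was not tested.

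Cells enter division when D cyclins activate CDK4 and CDK6, which phosphorylate the pocket proteins and release E2F factors that act with a DP partner. E2F factors raise the RNA of E and A cyclins, CDK1 and CDC6. CDK1 with cyclin B then drives mitosis until the anaphase-promoting complex (APC/C) with CDC20 degrades cyclin B and securin. In the adult zebrafish brain, dividing cells are mostly radial glia and progenitors of the ventricular zones, and most neurons have left the cycle. Whole-brain RNA averages over all cells, so the number of dividing cells and the RNA per dividing cell cannot be told apart.

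Most of these genes were at low levels compared with the other genes of the table. The median of the 35 members was 49.1 mean normalized counts, against 189 for the 2850 listed genes that are no member, and 19 members (54.3%) were under 50 counts, against 678 (23.8%) of the others. The range was wide, from 5.23 for e2f1 to 6212 for ccni. Because longer transcripts collect more reads, levels of different genes were compared per kb of gene span, the only length that the table gives, which counts introns too. On that scale the median was 3.17 counts per kb for members and 10.1 for the other listed genes, while the median span was 17.5 kb for members and 17.2 kb for the others. On the same scale, 10 of 35 members (28.6%, exact binomial 95% interval 14.6 to 46.3, which covers counting error only and treats genes as independent) were above the median of all listed genes. Without length scaling, 9 of 35 were above the median (25.7%). Members and listed genes were then both kept to at least 50 counts, which leaves 16 members. Of these, 7 (43.8%) were above the median of the listed genes so kept, 15.95 per kb. That filter acts on the level itself and takes out the 19 members under 50, so nothing is read from the higher share. The members above the median per kb were cdk5r2a, ccni, cdk5r1a, cdkn2a/b, ccnd1, lmnb1, lmnb2, tfdp1a, cdkn1ca and cdk2ap1. Only 4 of these 10 (cdkn2a/b, ccnd1, tfdp1a and cdkn1ca) are cyclins of the division cycle, CDK inhibitors or factors of the E2F pathway. The others are lamins, activators of the neuronal kinase CDK5, a CDK2-binding protein and an atypical cyclin. Without lamins, binding partners and atypical cyclins, a split made after the values were seen, 4 of 24 genes (16.7%) were above that median, and the median level was 41.5 counts.

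**Figure D1:**
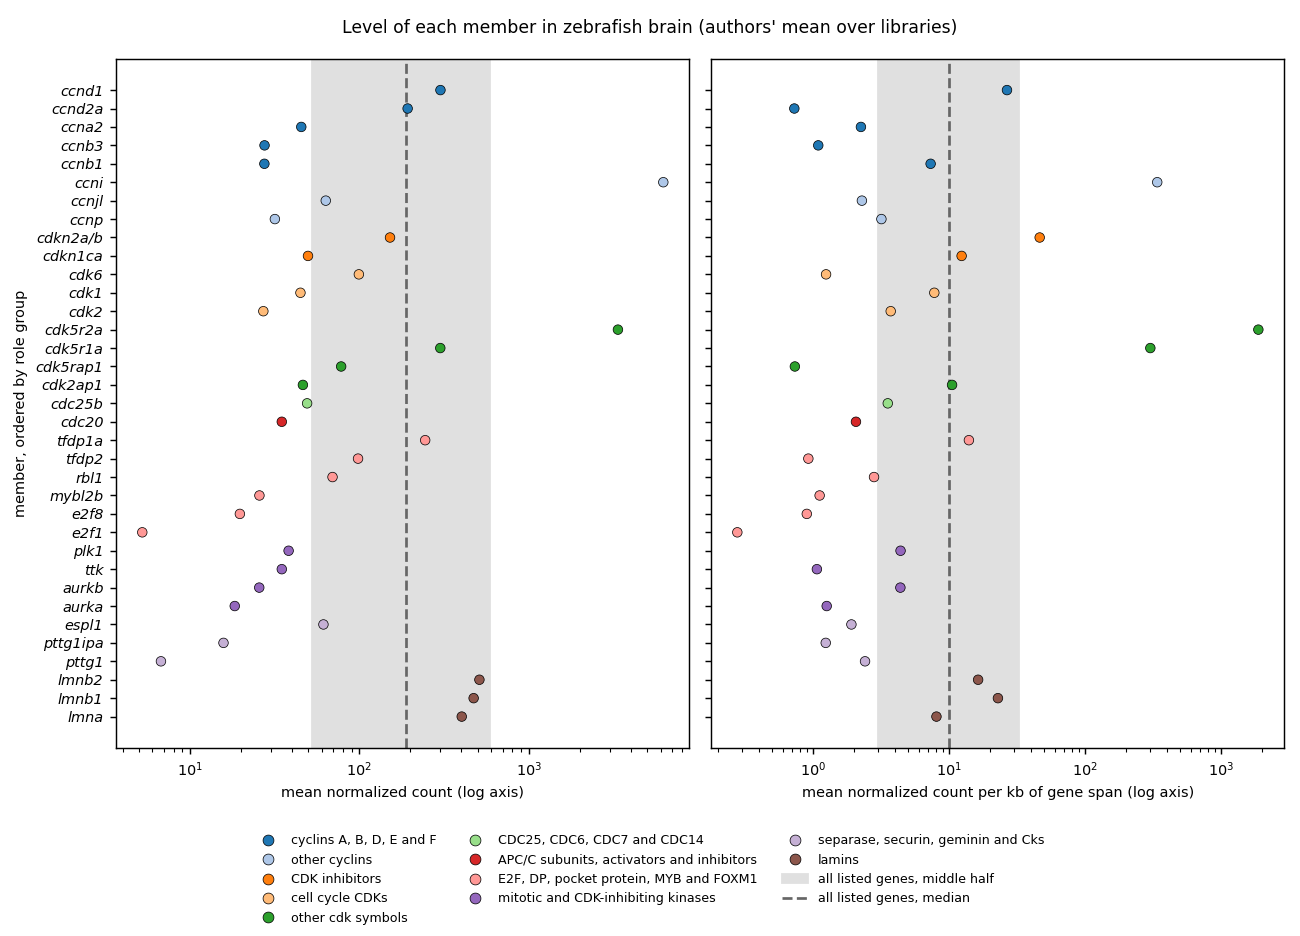
Authors' mean normalized count of each of the 35 members (left) and the same value per kb of gene span (right), on log axes, with 1 point per gene coloured by role group. The grey band holds the middle 50% of all listed genes and the dashed line is their median, and e2f1 and pttg1 lie at the low end of the left panel with 5.23 and 6.74 counts, while ccni and cdk5r2a lie at 6212 and 3354.

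The pattern also matches genes that are not in the table, and how many of each role group are listed is a property of the table and not a test. Role groups were made by the start of the symbol, so their annotated numbers are not counts of true family members. They also hold CCNB1IP1 and ccndbp1 under the cyclins, CDKN2AIP and CDKN2AIPNL under the CDK inhibitors, AURKAIP1 under the kinases and CDC73 under the group of CDC7. Of 126 annotated genes whose reference symbol matches, 35 are listed (27.8%), against 9.51% of all 29201 annotated genes (2778 listed with a reference symbol). The rule picked members from this table, so nothing is read from this share. For lamins the pattern covers only symbols that start with lmna or lmnb, and all 3 such annotated genes are listed. Of the cell cycle CDKs 3 of 4 are listed (cdk1, cdk2 and cdk6, but not CDK4). The E2F, DP, pocket protein, MYB and FOXM1 group has 6 of 18, the mitotic and CDK-inhibiting kinases 4 of 11, and the group of separase, securin, geminin and Cks 3 of 8. Of the cyclins A, B, D, E and F 5 of 15 are listed, and neither E cyclin, CCNB2 nor CCNF is among them. CDK inhibitors have 2 of 11, other cyclins 3 of 18, other cdk symbols 4 of 25, the group of CDC25, CDC6, CDC7 and CDC14 1 of 8, and APC/C subunits, activators and inhibitors 1 of 5. Genes missing from the list may have been tested without a call or not tested, which the table does not separate, and their absence says nothing about their level.

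**Figure D2:**
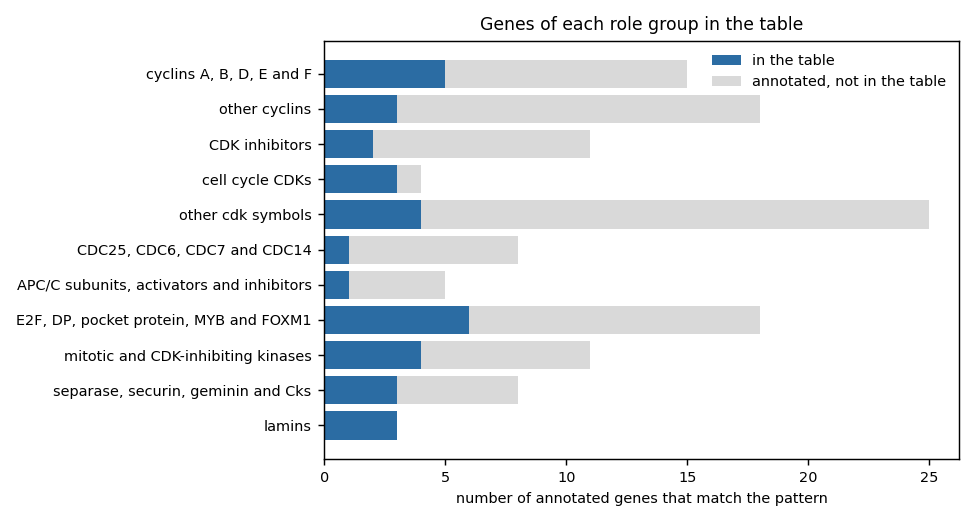
Number of annotated genes whose symbol matches the pattern in each of the 11 role groups, split into those in the deposited table (blue) and those not in it (grey). The genes with lmna or lmnb symbols are all listed, with 3 of 3, while 4 of 25 genes with other cdk symbols are.

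Among the cyclins that drive division, the D cyclins of G1 had the most counts. ccnd1 (ENSDARG00000101637, chromosome 7 of GRCz11 from 54668303 to 54679595), the partner of CDK4 and CDK6, was at 301 mean normalized counts and 26.6 counts per kb of span, above 72.0% of all listed genes per kb. Its relative ccnd2a (ENSDARG00000051748, chromosome 25 of GRCz11 from 16973945 to 17239079) was at 193 counts. As the span of ccnd2a is 265 kb, its level per kb was 0.73, the second lowest of the 35 members, and the ratio of ccnd1 to ccnd2a was 1.56 in counts but 36.7 per kb. Without an exon length for each gene, the order of these 2 levels per transcript was not tested. The S phase and mitotic cyclins were lower in counts. ccna2, which acts in S phase and G2, was at 45.4 counts, and the mitotic cyclins ccnb1 and ccnb3 were at 27.5 counts each. Per kb of span, ccnb1 (3.76 kb) was at 7.30 and ccnb3 (25.3 kb) at 1.09.

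Outside the division cycle, ccni (ENSDARG00000068214, chromosome 21 of GRCz11 from 5780888 to 5799199) had the highest count of all 35 members. It encodes cyclin I, an atypical cyclin known in mammals from neurons and other non-dividing cells, and it was at 6212 counts and 339 per kb, above 99.1% of the listed genes in counts. ccnjl, a cyclin J-like gene, was at 63.3 counts, and ccnp, another atypical cyclin, at 31.7. Per kb they were at 2.28 and 3.17. ccni was thus the only one of the 3 above the median of all listed genes.

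The kinases that the cyclins activate lay in the lower part of the listed genes. cdk6, the partner of D cyclins, was at 99.3 counts, cdk1, the kinase of mitosis, at 44.9 counts and cdk2, the partner of E and A cyclins, at 27.1 counts. Per kb of span the order was different, with cdk1 at 7.78, cdk2 at 3.72 and cdk6, whose span is 79.9 kb, at 1.24. All 3 were below the median of all listed genes on both scales. The level of cdk1 per kb was close to that of ccnb1, which encodes its mitotic partner (7.78 and 7.30). In counts the 2 were not as close (44.9 and 27.5), and the other B cyclin, ccnb3, was at 1.09 per kb.

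Both activators of the neuronal kinase CDK5 in the table exceeded every kinase of the cycle. cdk5r2a, which encodes a p39-like activator, was at 3354 counts, and cdk5r1a, which encodes a p35-like activator, at 300.1 counts. Their spans are short, at 1.78 kb for cdk5r2a and 0.994 kb for cdk5r1a, so that they stood at 1881 and 302 counts per kb, ranks 1 and 3 among the 35. CDK5 with these activators acts in neurons and not in the division cycle, and CDK5 itself is not in the table. The pattern matched 2 more partners of CDKs. cdk2ap1, which encodes a CDK2-binding protein, was at 46.4 counts and 10.5 per kb, and cdk5rap1, which is named for binding a CDK5 activator and encodes a mitochondrial tRNA-modifying enzyme, was at 78.0 counts and 0.73 per kb over a span of 106 kb.

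The 2 CDK inhibitors of the table differed in level. cdkn2a/b (ENSDARG00000037262, chromosome 1 of GRCz11 from 26127818 to 26131088), the fish counterpart of the genes of p16 and p15, which block CDK4 and CDK6, was at 152 counts and 46.3 per kb. Over its short span of 3.27 kb, it was above 80.6% of the listed genes per kb. In counts it was above only 44.7% of them, below the median of all listed genes. cdkn1ca (ENSDARG00000010878, chromosome 7 of GRCz11 from 48663031 to 48667056), related to p57, which blocks CDKs of G1 and S phase, was at 49.7 counts and 12.3 per kb. The ratio of cdkn2a/b to cdkn1ca was 3.05 in counts and 3.75 per kb. The listed gene trpm5, at 12.5 counts, starts 0.025 kb past the end of cdkn1ca, and whether reads of one were counted for the other was not tested. cdkn1a, cdkn1cb and CDKN1B are not in the table.

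The factors that turn the transcription of division genes on and off ranged from 5.23 to 244 counts. tfdp1a, a DP partner with which classical E2F factors bind DNA, was the highest of them at 244 counts and 14.0 per kb. tfdp2, a second DP gene, was at 98.1 counts and 0.92 per kb over 107 kb. rbl1, the pocket protein p107, was at 69.4 counts and 2.80 per kb. mybl2b, a B-MYB gene that drives late cycle genes, was at 25.7 counts, and e2f8, an atypical repressor E2F, at 19.7. e2f1 (ENSDARG00000103868, chromosome 23 of GRCz11 from 43467799 to 43486714), the classical activator E2F, was the lowest of all 35 members on both scales, with 5.23 counts and 0.28 per kb, and 0.589% of the listed genes were at or below its count. The ratio of e2f8 to e2f1 was 3.77 in counts and 3.24 per kb. Both counts are low, and that of e2f1 is near the lowest of all listed genes, 3.75. With no value per library, how uncertain this ratio is was not tested. RB1, RBL2 and FOXM1 are not in the table.

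The regulators of mitotic entry and exit were at low counts. plk1, the Polo kinase of spindle poles and centromeres, was at 38.2 counts, and ttk, the MPS1 kinase of the spindle checkpoint, was at 34.8. aurkb, the kinase of the chromosomal passenger complex, was at 25.6 counts and 4.38 per kb, and aurka, the kinase of spindle poles, at 18.4 counts and 1.26 per kb, a ratio of 1.39 in counts and 3.48 per kb. cdc25b, the phosphatase that activates CDK1, was at 49.1 counts, and cdc20, the APC/C activator, at 34.8. Per kb these were 4.39 for plk1, 1.06 for ttk, 3.54 for cdc25b and 2.06 for cdc20. espl1, which encodes separase, the protease that cuts cohesin, was at 61.3 counts and 1.91 per kb. pttg1, which encodes its inhibitor securin, was at 6.74 counts and 2.41 per kb over a span of 2.80 kb, the second lowest count of the 35. pttg1ipa, named for a protein that binds securin, was at 15.8 counts and 1.24 per kb. None of the genes in this paragraph was above the median of all listed genes on either scale.

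The lamins, which form the meshwork under the nuclear envelope of dividing and resting cells alike, were the highest group after ccni and cdk5r2a in counts. lmnb2 was at 511 counts, lmnb1 at 472 and lmna at 402, within a ratio of 1.08 for lmnb2 to lmnb1. Per kb of span they were at 16.3, 22.8 and 8.06, so that lmnb1 was the highest of the 3 on this scale. lmna lay below the median of all listed genes per kb, and both B-type lamins lay above it.

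Other genes of the cell cycle, from a list chosen with earlier results of these data known, were set beside the members. Of 40 such genes, 28 are in the table, beside 9.51% of all annotated genes. Because the list was so chosen, nothing is read from that share. The 28 genes had 10.2 to 236 counts, a median of 59.6 counts and a median of 3.24 per kb. mki67, which marks dividing cells, was the highest at 236 counts, top2a, a DNA topoisomerase of mitosis, was at 198, and mcm2, a helicase subunit, at 89.6. These values were above those of cdk1 and ccnb1 in counts, while others of the list, such as chek1 (10.2) and cdc45 (13.7), were below both. Per kb of span mki67 (16.1), nusap1 (12.4), rrm1 (11.3) and rrm2 (8.31) were above cdk1 (7.78) and ccnb1 (7.30). The rest of the 28, among them top2a (5.91) and mcm2 (3.79), were below both. Markers of brain cell types were looked up for the labelled tissue, and since the table holds only called genes (9.51% of all annotated genes), the numbers listed do not measure which cells were present. 8 of 9 oligodendrocyte genes are listed, with 328 to 78061 counts, and 3 of 8 genes of radial glia and progenitors, with 117 to 5499. Of 11 neuronal genes 1 is listed, snap25a, at 37420 counts, and 3 of 7 microglia, 4 of 6 endothelial and 2 of 4 red cell genes are listed. The part of these cells in the members' levels was not tested.

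The members lie on 20 of the 25 chromosomes of GRCz11 that hold listed genes. 12 chromosomes have 1 member each. Chromosome 6 has the most, with aurka, cdk5r2a, espl1, pttg1ipa and rbl1, followed by chromosome 7, with ccnb3, ccnd1, cdkn1ca and e2f8. No 2 members are close together, as the nearest pair, cdk2 and mybl2b on chromosome 11, is 1.73 Mb apart. No member overlaps another listed gene, and 31 of 35 have a listed gene within 500 kb. Neither share was computed for the other listed genes, so nothing is read from them. elovl1a ends 2.47 kb from cdc20, and kdm7ab starts 5.45 kb from ccnd2a.

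Both Aurora kinase genes lie near a chromosome end. aurka (ENSDARG00000012485) lies on chromosome 6 of GRCz11 from 60125033 to 60139655, 130 kb from the end. aurkb (ENSDARG00000037640) lies on chromosome 14 from 240487 to 246342, 240 kb from the end. They are the only members within 500 kb of an end (5.71% of 35), against 119 of the other 2850 listed genes (4.18%). These shares are close and the first rests on 2 genes, so nothing is read from it. The next nearest, cdk2ap1, is at 1114 kb and mybl2b at 1552 kb. The median distance was 14.9 Mb for members and 13.7 Mb for the other listed genes, and the farthest member, cdk5r1a, was at 27.8 Mb. As a percent of chromosome length the order was reversed, with medians of 22.8% for members and 25.6% for the other listed genes.

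**Figure D3:**
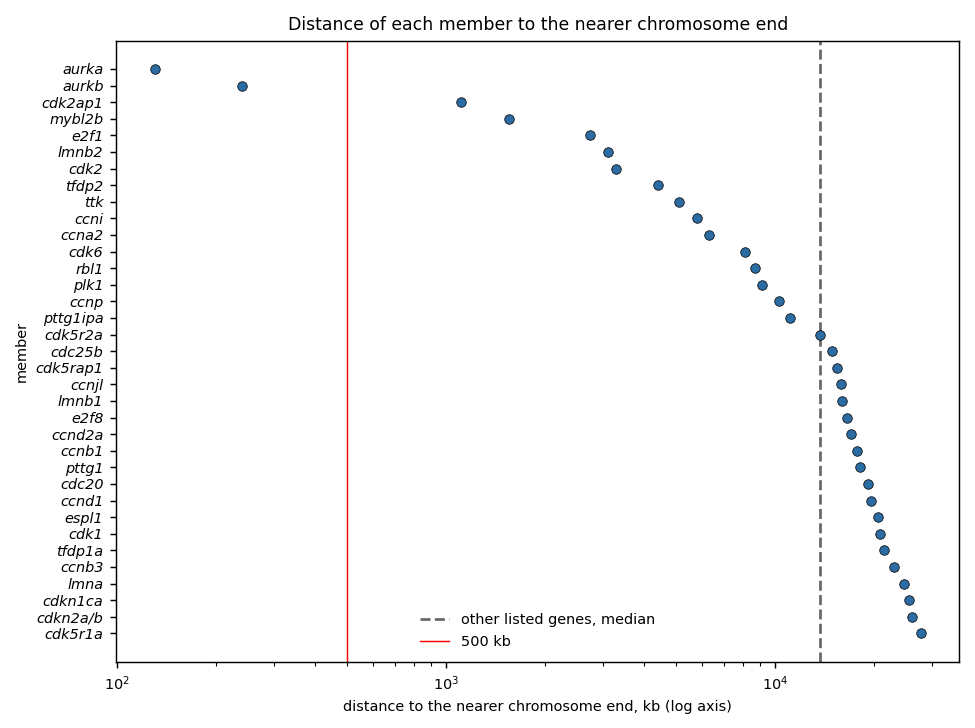
Distance of each of the 35 members to the nearer end of its chromosome on GRCz11, in kb on a log axis, with 1 point per gene. The red line marks 500 kb and the dashed line the median of the other listed genes, and aurka and aurkb are the only members left of the red line.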

How the data were processed

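Libraries were made from poly(A) RNA of whole zebrafish brains. According to the submitters' notes, reads were processed with STAR, HTSeq, MultiQC 1.9 and cutadapt 3.0 against GRCz11, while the methods name featureCounts for counting and DESeq2 for the authors' comparison. The signal that the authors deposited and that was used here is each gene's normalized count averaged over the libraries of their fit, which by the methods is of WT samples. Of the 3 deposited sheets, the whole list was read; the other sheets, named as its higher and lower genes, were not. The 5 columns of the authors' own comparison (log2 fold change, its standard error, statistic, p and adjusted p) were not used.

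The 2 gene identifiers with 2 entries each were counted once. A reference table of names gave symbols for 2778 identifiers. The level was divided by gene span on GRCz11, since no coding length was available here. Distances to the chromosome end were checked to be the smaller of the start and the chromosome length minus the end for all 2885 genes. All 35 members are named. The members and lists were chosen with earlier results of these data known. No test was made, as there is no value per library. The depth of each library is not given, though the paper states a minimum of uniquely mapped reads for all samples and an average coverage. Calculations used pandas 2.3.3, numpy 2.4.6 and scipy 1.17.1 under Python 3.11.15, with matplotlib 3.10.9 for plots, and shares and percentiles were tested on simulated data.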

Additional observations from a re-analysis of the deposited data

How the results depend on the processing

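The number of members was 35 with the symbols of the file and 35 with those of the reference table, and 32 without lamins. The share of members above the median per kb of all listed genes was 28.6%, and 8 of 32 were above it without lamins. It was 25.7% against the median count without length scaling. Among genes with at least 50 mean normalized counts it was 43.8% (7 of 16), against the median of those genes (15.95 per kb). That filter acts on the level itself, so nothing is read from its higher share. The shares of these settings lie within the exact interval of the first. That interval is wide and the settings share genes, so this does not measure how stable the share is. Leaving out lamins, binding partners and atypical cyclins, an alternative added after the data were seen, left 24 members and a share of 16.7%. The planned scaling by coding length could not be run, as no coding lengths were available here. Planned searches for E2F, CHR and CCAAT motifs in promoters could not be run either, as no sequences were available. For the same reason, planned searches for KEN and destruction boxes in proteins were not run. Leaving out a library was not possible, as the levels are pooled. Gene span counts introns, so an order per kb of span need not be the order per transcript.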
